A study of Capra hircus with 6 samples.

Results

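Complement is a set of plasma and cell-surface proteins that marks targets for uptake and lysis. The proteases C1r and C1s start its classical pathway, C3 is the protein on which all its pathways converge, and factor B and factor D build the alternative pathway's C3-cleaving enzyme. Factor I, C1 inhibitor (encoded by SERPING1) and CD59 restrain the cascade at successive steps. The liver supplies most of the circulating proteins, while stromal cells, macrophages and fat cells also make some of them, and factor D is known as adipsin for its output from fat cells.

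The transcripts of 9 such genes (C1R, C1S, C4A, C3, CFB, CFD, CFI, SERPING1 and CD59) were looked up by symbol in expression tables of mesenchymal stem cells from goat (Capra hircus) fat, a stromal cell type that can form fat cells. Of the 9 symbols, 8 were found among 16262 gene rows. C4A matched no row and was not analysed here. The samples were 3 libraries from control cells of wild-type genotype and 3 from cells overexpressing TAZ, the Hippo pathway's transcriptional coactivator encoded by WWTR1, and all 6 are labelled as under adipogenic differentiation. How TAZ was introduced, whether the controls carried an empty construct, and the sex and age of the animals are not stated in the labels. The study's title names TNF-α, but no sample label gives a cytokine treatment. The stated purpose was to examine what TAZ does in adipogenesis of these cells.

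Values are FPKM, fragment numbers divided by gene length and library total, so levels can be compared between genes. Each mean ± SD is over n = 3 libraries. Log2 fold changes are differences of mean log2(FPKM + 1), TAZ minus control, from limma's moderated test over 10750 genes that passed a filter on low values. On that scale the change of a low gene is understated. Library totals, as recovered from the FPKM values, were 16935698 to 18852821 fragments. WWTR1 stood at 29.9 to 35.9 FPKM in the controls and at 84.2 to 118.1 FPKM in the TAZ libraries, in the direction of the labels. No label ties the replicates to separate cultures or animals, and p-values here measure only how these libraries vary, which may be technical variation.

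C1R, C1S, C3, CFB and SERPING1 rose in the TAZ libraries, CD59 did not pass the test, and CFI and CFD stayed at or under the limit of detection in both groups. The rises ranged from 2.11 times the control mean FPKM for SERPING1 to 59.6 times for CFB. Over all tested genes, 15.7% were called higher and 22.1% lower, at 37.9% in either direction (limma adjusted p under 0.05). Of the 8 complement genes with a row, 6 passed the filter and 5 of these were called higher, with a median log2 fold change of 1.90 beside -0.05 over all tested genes. Control and TAZ values were fully separated for these 5 genes, as they were for 48.4% of all tested genes. CFB passed the filter only through the TAZ libraries, so its difference was part of its selection for testing. It nevertheless counts in the 5 calls and in the median of 1.90. The other 5 tested genes were above the filter in the controls as well. The balance of all calls turned with the scaling, from 1693 higher and 2381 lower to 2001 higher and 1821 lower under median-ratio scaling, whereas the 5 calls held and CD59 was not called under either.

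**Figure D1:**
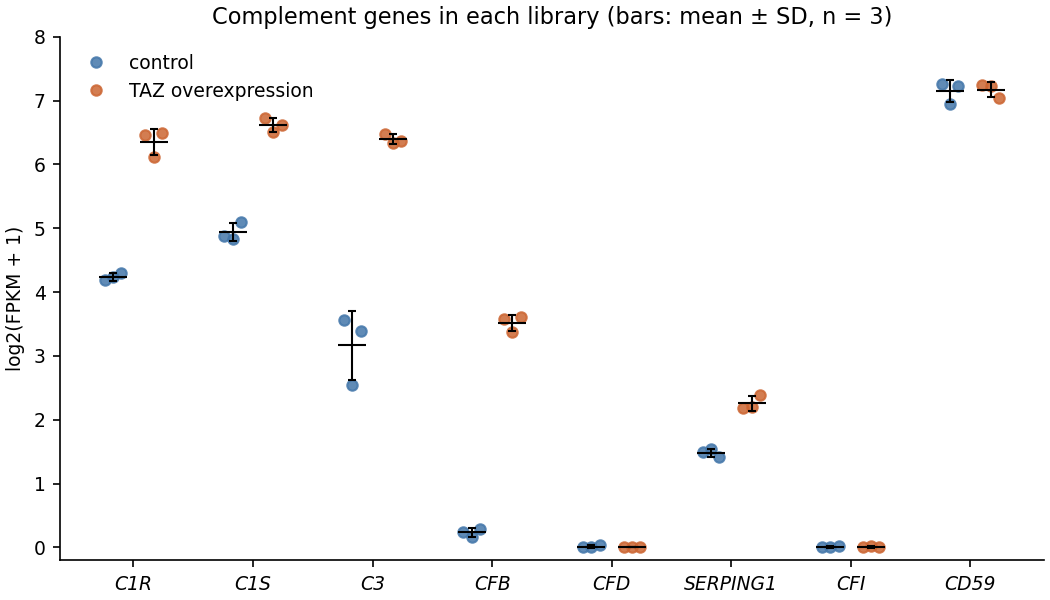
Level of each of the 8 complement genes as log2(FPKM + 1), with 1 point per library, control in blue and TAZ overexpression in orange, and black bars for the mean ± SD of 3 libraries. C1R, C1S, C3, CFB and SERPING1 show no overlap between the groups, CD59 points overlap at the top of the scale, and CFD and CFI lie at 0.

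C1R and C1S encode the serine proteases of the C1 complex, which cleave C4 and C2 once C1q has bound its target. In replicate order, here and for the genes that follow, C1R stood at 17.2, 17.8 and 18.8 FPKM in the control libraries and reached 87.0, 68.4 and 88.8 FPKM under TAZ overexpression. Every TAZ library was above every control library, and TAZ replicate 2 was the lowest of its group. The mean went from 17.9 ± 0.797 to 81.4 ± 11.3 FPKM, a log2 fold change of 2.11 (SE 0.10, limma adjusted p = 3.53e-09).

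C1S stood at 28.5, 27.6 and 33.2 FPKM in the controls and reached 105.4, 90.2 and 97.7 FPKM under TAZ overexpression. The groups did not overlap, and TAZ replicate 2 was again the lowest of its group. The mean went from 29.8 ± 3.04 to 97.8 ± 7.64 FPKM, a log2 fold change of 1.68 (SE 0.095, limma adjusted p = 1.59e-08). C1S was the more abundant of the pair in each of the 6 libraries, but the gap was smaller in the TAZ libraries. The ratio of C1R to C1S was 0.603, 0.646 and 0.565 in the controls and 0.825, 0.759 and 0.909 in the TAZ libraries. Its increase of 1.37-fold had an exact two-sided permutation p = 0.1, the smallest that 3 libraries against 3 allow (0.125 after Benjamini-Hochberg adjustment over 5 ratios).

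C3 encodes the central component, whose cleavage product binds covalently to target surfaces. C3 was at 10.8, 4.85 and 9.47 FPKM in the controls, and TAZ overexpression had 88.5, 79.7 and 81.6 FPKM. The TAZ libraries lay close together, while control replicate 2 was at about 0.5 of the level of the other controls. The mean rose 9.96-fold, from 8.36 ± 3.11 to 83.3 ± 4.60 FPKM, and the log2 fold change was 3.23 (SE 0.19, limma adjusted p = 2.67e-08). Without control replicate 2 the log2 fold change was 2.92. Behind these values stood 2226.5 control fragments and 23167 TAZ fragments, a number that the FPKM values give in steps of 0.5.

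CFB encodes factor B, the protease of the alternative pathway convertase. CFB was near 0 in the controls, at 0.186, 0.120 and 0.223 FPKM, and at 10.9, 9.41 and 11.2 FPKM in the TAZ libraries. The control values came from 8.0, 5.0 and 9.5 fragments, above the 3 fragments that a count of 0 would allow, and the TAZ values from 457.5, 436 and 509.5. The means were 0.177 ± 0.0523 and 10.5 ± 0.974 FPKM, with a log2 fold change of 3.29 (SE 0.10, limma adjusted p = 2.2e-11). The log2 fold change was 5.28 with a pseudocount of 0.1 in place of 1, and 5.84 when limma's voom was run on fragment numbers, so the size of the rise depends on how low values are treated. The ratio of CFB to C3 was higher in each TAZ library than in any control library. Per 100 FPKM of C3 there were 1.73, 2.48 and 2.36 FPKM of CFB in the controls and 12.4, 11.8 and 13.8 in the TAZ libraries, a 5.83-fold higher ratio (exact permutation p = 0.1, adjusted 0.125).

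CFD encodes factor D, the protease that cleaves factor B. CFD was listed at 0 in 5 libraries and at 0.0235 FPKM in control replicate 3, which is 1 step of 0.5 fragments. A library with 0 fragments allows up to 3 fragments, or 0.129 to 0.144 FPKM at this gene's recovered length of 1230 bases. A difference in CFD was therefore not detectable at this depth. The 6 fat cell markers examined (ADIPOQ, PLIN1, LPL, PPARG, CD36 and LEP) were all below the filter as well, with a summed level of 0.517 to 0.717 FPKM in the controls and 0.340 to 0.466 FPKM in the TAZ libraries. That gap came from CD36 (0.282 ± 0.157 and 0.0942 ± 0.0463 FPKM), and the other 5 markers each overlapped between the groups and summed to 0.257 to 0.354 and 0.211 to 0.355 FPKM.

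Among the regulators, SERPING1 encodes C1 inhibitor, the serpin that inactivates C1r and C1s. SERPING1 was at 1.81, 1.92 and 1.67 FPKM in the controls, and TAZ overexpression had 3.56, 3.58 and 4.25 FPKM. The groups did not overlap, and TAZ replicate 3 was the highest. The means were 1.80 ± 0.124 and 3.80 ± 0.394 FPKM, with a log2 fold change of 0.77 (SE 0.10, limma adjusted p = 4.82e-05). Per 100 FPKM of C1R and C1S together there were 3.97, 4.22 and 3.21 FPKM of SERPING1 in the controls and 1.85, 2.26 and 2.28 in the TAZ libraries. This ratio was 0.561 times the control ratio, with no overlap (exact permutation p = 0.1, adjusted 0.125).

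CFI encodes factor I, which degrades the active fragments of C3 and C4. CFI had 1 step of 0.5 fragments in control replicate 3 and 1 in TAZ replicate 2, at 0.0131 and 0.0120 FPKM, and was listed at 0 in the other 4 libraries. The limit that a count of 0 allows was 0.0723 to 0.0805 FPKM, which bounds its level in both groups, and a difference below that limit was not detectable. With no filter on low genes, CFI and CFD were not called (limma adjusted p = 0.995 and 0.523).

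CD59 encodes the membrane-anchored inhibitor of the final, pore-forming step. CD59 had the highest level of the 8 genes in both groups, at 152.9, 122.9 and 148.2 FPKM in the controls and 151.3, 148.3 and 130.3 FPKM in the TAZ libraries. The groups overlapped, with the lowest value in control replicate 2 and the next lowest in TAZ replicate 3. The means were 141 ± 16.1 and 143 ± 11.4 FPKM, and the log2 fold change was 0.02 (limma adjusted p = 0.879) with a 95% interval from -0.19 to 0.24. That interval lies below the log2 fold changes of the 5 genes that rose, SERPING1 included, and leaves only smaller changes of CD59 possible. The ratio of CD59 to C3 was 14.2, 25.3 and 15.7 in the controls and 1.71, 1.86 and 1.60 in the TAZ libraries.

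**Figure D2:**
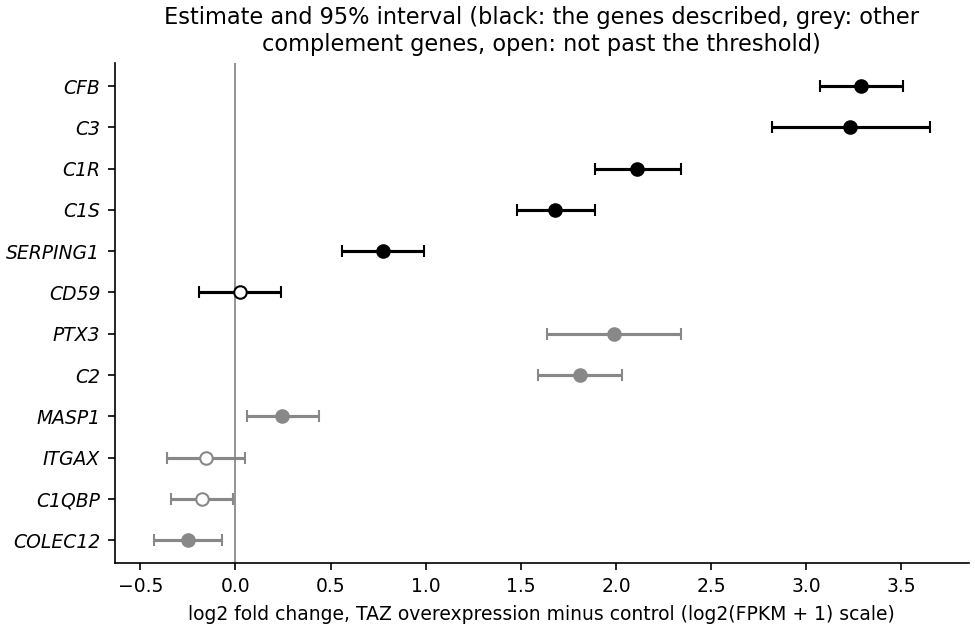
Log2 fold change, as a TAZ minus control difference of log2(FPKM + 1), with its 95% interval from limma, for the 6 tested genes described (black) and the 6 tested genes of a wider complement list (grey), open circles marking genes that did not pass the threshold. CFB and C3 lie at 3.29 and 3.23, and the interval of CD59 spans 0.

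The order of levels differed between the groups. In the controls the order from high to low was CD59, C1S, C1R, C3, SERPING1 and CFB, and none of these neighbours overlapped. In the TAZ libraries the order was CD59, C1S, C3, C1R, CFB and SERPING1, where C3 and C1R overlapped, at 79.7 to 88.5 and 68.4 to 88.8 FPKM. CFB thus stood below SERPING1 in each control library and above it in each TAZ library. The summed level of the 8 genes was 175 to 212 FPKM in the controls and 400 to 447 FPKM in the TAZ libraries. CD59 made up 70.9% ± 1.30 of the control sum but 34.2% ± 2.83 of the TAZ sum, and C3 4.11% ± 1.20 and 19.8% ± 0.115. SERPING1 kept a like share, at 0.914% ± 0.160 and 0.906% ± 0.116. By mean FPKM, C3 was number 5891 of the 16262 rows in the controls and number 842 in the TAZ libraries, and CFB number 12187 and number 5139.

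**Figure D3:**
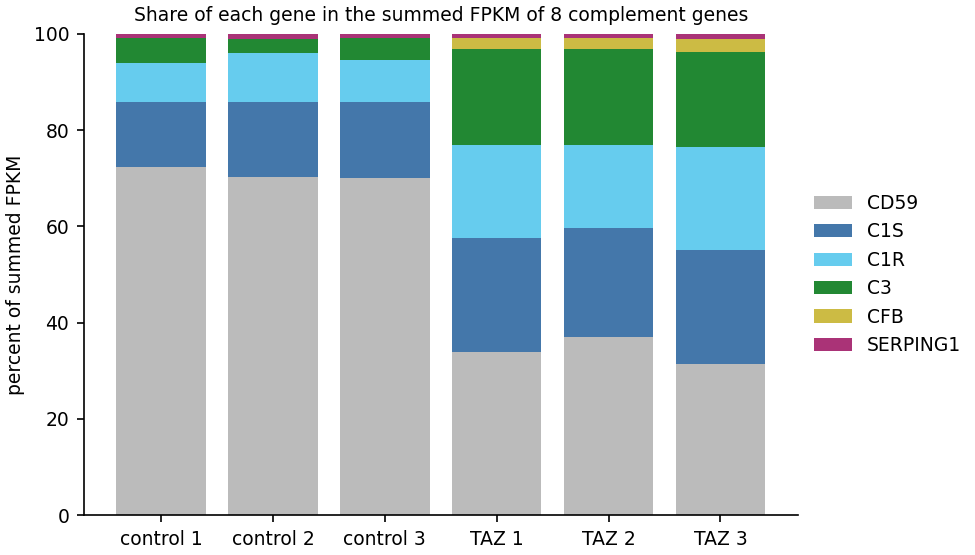
Share of each gene, in percent, of the summed FPKM of the 8 complement genes, with 1 stacked bar per library (CFD and CFI are too low to be seen). CD59 fills 70.04% to 72.35% of each control bar and 31.5% to 37.1% of each TAZ bar, where C1S, C1R and C3 fill most of the rest.

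**Figure D4:**
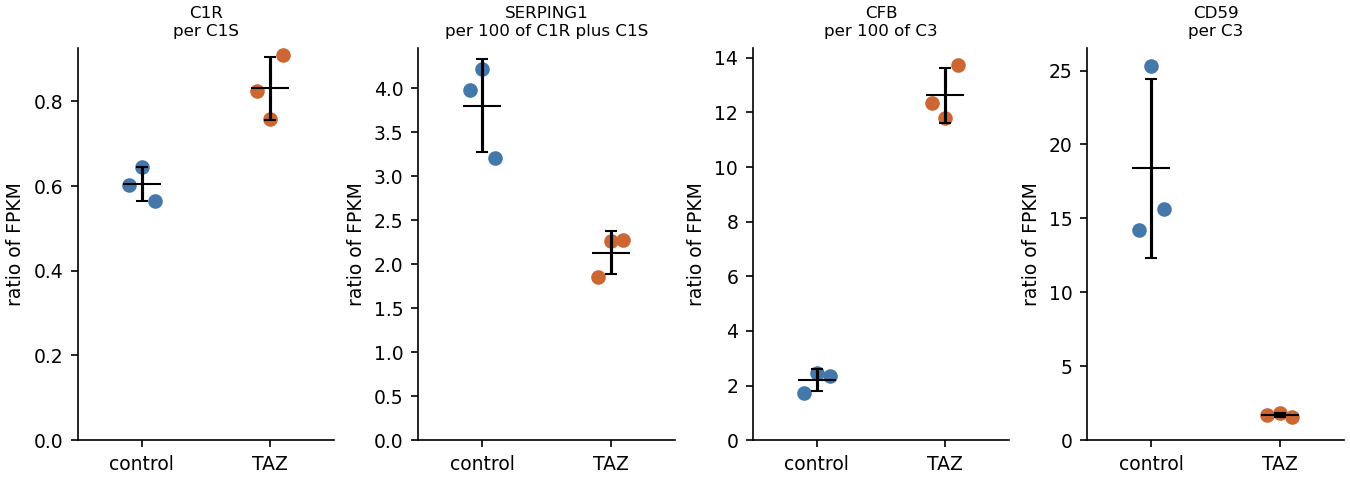
Ratios between FPKM values within a library, with 1 point per library, bars for the mean ± SD of 3 libraries and axes that start at 0. C1R per C1S and CFB per C3 were higher in every TAZ library than in any control library, and SERPING1 per C1R plus C1S and CD59 per C3 were lower.

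Ranked by log2 fold change among the 10750 tested genes, CFB was number 59, C3 number 61, C1R number 117, C1S number 167, SERPING1 number 562 and CD59 number 4285. A rise of at least 2-fold on this scale was called for 3.53% of all tested genes, and C1R, C1S and C3 were among them. CFB was as well, but it passed the filter only through the TAZ libraries. Its rank and this call thus rest on a difference that was part of its selection for testing. SERPING1 fell short of a 2-fold rise with a pseudocount of 1 and reached a log2 fold change of 1.03 with a pseudocount of 0.1.

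**Figure D5:**
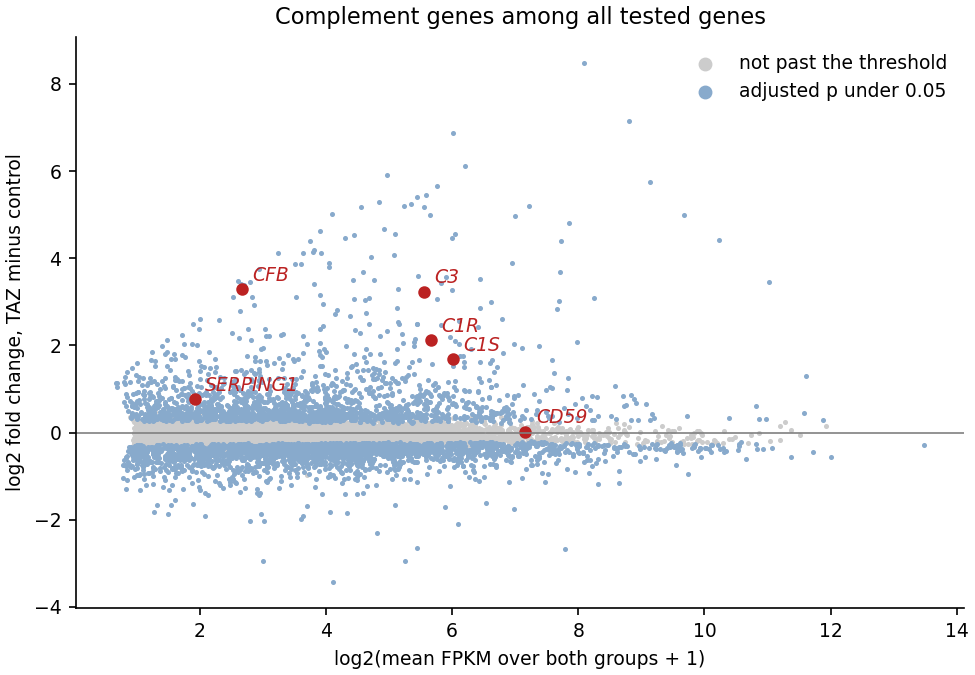
Log2 fold change against mean level for the 10750 tested genes, 1 dot per gene, in blue where the limma adjusted p was under 0.05, with the 6 tested complement genes in red. C3, C1R and C1S lie high above most genes of like level, and CD59 lies on the line of no change.

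Genes with the most similar profile over the 6 libraries were sought for CFB and C3, which had the largest fold changes, by the Euclidean distance between log2(FPKM + 1) values centred on each gene's mean. The nearest to CFB were PARP9, TNFSF13B and GPR84, at distances of 0.237, 0.240 and 0.296 where the median gene was at 4.10. The nearest to C3 were PARP9, TAP1 and HERC6, at 0.621, 0.623 and 0.627. PARP9, an ADP-ribosyltransferase family member, went from 2.06 ± 0.257 to 26.1 ± 2.77 FPKM. These distances are a description, and with 2 groups of 3 libraries they reflect mostly the size of the difference between the groups.

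The wider complement system was followed with a list of 46 further genes, of which 25 had a row and 6 passed the filter. Of these 6, 3 were called higher and 1 lower, beside 15.7% and 22.1% of all tested genes. Of the rises, 2 came from genes that passed only through the TAZ libraries, C2 and PTX3. Their difference was thus part of their selection, also within the list's median log2 fold change of 0.05 (-0.05 over all tested genes). The remaining tested genes of the list were at 0.25 (MASP1), -0.25 (COLEC12), -0.15 (ITGAX) and -0.18 (C1QBP). C2, the classical pathway counterpart of factor B, was at 0.309, 0.277 and 0.438 FPKM in the controls and 3.68, 3.32 and 4.12 FPKM in the TAZ libraries (log2 fold change 1.81, SE 0.10, limma adjusted p = 1.54e-08), and 3.12 with a pseudocount of 0.1. The ratio of C2 to C3 overlapped between the groups, at 4.40 ± 1.43 and 4.46 ± 0.511 FPKM of C2 per 100 of C3 (exact permutation p = 0.9, adjusted 0.9). PTX3, a pentraxin that binds C1q, was at 0.0160 to 0.0627 FPKM in the controls, from 3.5 fragments in all, and at 2.42, 4.79 and 2.53 FPKM in the TAZ libraries (log2 fold change 1.99, limma adjusted p = 7.16e-07). With a pseudocount of 0.1 its log2 fold change was 4.56.

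The other calls in the list were small. MASP1, a protease gene of the lectin pathway, was at 20.2 ± 1.13 and 24.2 ± 1.30 FPKM (log2 fold change 0.25, limma adjusted p = 0.0398), and leaving out control replicate 1, control replicate 2 or a single TAZ library, whichever it was, ended the call (adjusted p from 0.0558 to 0.154). COLEC12, a membrane collectin, fell from 72.2 ± 3.80 to 60.6 ± 2.90 FPKM (log2 fold change -0.25, limma adjusted p = 0.03). That call was lost under median-ratio scaling (adjusted p = 0.0818) and without control replicate 1 or 3 or any 1 of the TAZ libraries (0.055 to 0.106). With the replicate number as a block, neither MASP1 nor COLEC12 was called (limma adjusted p = 0.123 and 0.105). C1QBP, which encodes a C1q-binding protein, and ITGAX, a subunit of a receptor for C3 fragments, did not pass, at 58.0 ± 1.46 against 51.3 ± 1.82 FPKM and 1.92 ± 0.133 against 1.62 ± 0.122 FPKM (limma adjusted p = 0.0968 and 0.22). C1QBP was called lower when low genes were not filtered out (adjusted p = 0.0373).

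Several steps of the cascade had few or no transcripts in either group. The gene C1QA, for a chain of C1q, had 0.5 fragments in all 6 libraries together, and the terminal components C5, C6 and C7 had 3.5, 0 and 5.5. The membrane regulator CD55 had 1.5 control fragments and 4 TAZ fragments, beside the 13363.5 and 14205.5 fragments of CD59. With no filter on low genes, 8 genes of the list were called, where 23.8% of all genes were. In addition to C2, PTX3, MASP1, COLEC12 and C1QBP, the receptor gene C5AR2 was called higher (0.00778 ± 0.00674 and 0.189 ± 0.0255 FPKM, limma adjusted p = 0.000673), and so was the integrin gene ITGB2 (0.0424 ± 0.0651 and 0.357 ± 0.0487 FPKM, adjusted p = 0.00489). CFP, which encodes properdin, the stabilizer of the alternative pathway convertase, was called lower in that fit (0.402 ± 0.0477 and 0.206 ± 0.0680 FPKM, adjusted p = 0.0251). C5AR2 rested on 1.0 control and 25.5 TAZ fragments, ITGB2 on 6.5 and 56.5, and CFP on 51.5 and 28.0. Of the control fragments of ITGB2, 6.0 came from replicate 1. The other 21 genes of the list were not analysed here, so the cascade was followed only in part.

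In NCBI RefSeq's annotation of assembly ARS1.2, used here for gene order alone, C1R and C1S are next to each other and CFB is next to C2. Of the 14 other protein-coding genes directly beside the 8 genes, 11 were tested. Of these, 5 were called higher and 1 lower, beside 15.7% and 22.1% of all tested genes. Among the 5 is C2, which passed the filter only through the TAZ libraries. LPCAT3, a lysophospholipid acyltransferase gene on the other side of C1S, rose from 36.8 ± 4.66 to 83.8 ± 1.37 FPKM (limma adjusted p = 6.17e-07). LOC102188569, on the other side of C1R, rose from 2.04 ± 0.103 to 9.43 ± 1.57 FPKM (adjusted p = 6.85e-08). Beside SERPING1, UBE2L6, whose product is the conjugating enzyme for ISG15, rose from 19.1 ± 1.98 to 117 ± 9.06 FPKM (adjusted p = 1.86e-10). GPR108 beside C3 was higher at 37.4 ± 1.62 and 48.6 ± 2.34 FPKM (adjusted p = 0.00344), and C2 is given above. GAR1 beside CFI, a small nucleolar ribonucleoprotein gene, fell from 16.5 ± 0.733 to 11.7 ± 1.12 FPKM (adjusted p = 0.00181). The 5 that did not pass were NELFE beside CFB, FBXO3 beside CD59, YPEL4 beside SERPING1, PLA2G12A beside CFI and MED16 beside CFD (adjusted p from 0.051 to 0.554). In that annotation, none of the 8 gene models overlapped a protein-coding gene up to 2 places away.

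In bulk RNA, a different number of cells of a type and a different amount of RNA per cell cannot be told apart. Of 9 stromal markers, all were above the filter in both groups, with a summed level of 22650 to 23920 FPKM in the controls and 21170 to 22810 FPKM in the TAZ libraries, most of it from VIM and the collagen genes. Within that list PDGFRB (41.5 ± 3.44 to 71.5 ± 4.44 FPKM, limma adjusted p = 1.94e-05) and COL3A1 (adjusted p = 0.0235) were higher. ENG (150 ± 14.8 to 92.8 ± 5.83 FPKM, adjusted p = 6.54e-05), THY1 (0.011) and VIM (0.0229) were lower, and 4 did not pass. Over all tested genes, 15.7% were called higher and 22.1% lower. Of 8 leukocyte markers with a row, PTPRC, the pan-leukocyte gene, had 0 fragments in all 6 libraries, AIF1 had 0 in 5, and CSF1R and TYROBP stayed under 0.06 FPKM. The T cell gene CD3E was at 0.598 ± 0.0733 and 0.0769 ± 0.0675 FPKM and the B cell gene CD79A at 0.215 ± 0.0927 and 0.0142 ± 0.0123 FPKM, both below the filter and without overlap. Among the genes above the filter, 48.4% did not overlap. CD68 fell from 4.53 ± 0.437 to 2.86 ± 0.333 FPKM (limma adjusted p = 0.00185), while CD14, a lipopolysaccharide co-receptor gene, rose from 9.58 ± 1.38 to 24.2 ± 0.421 FPKM (adjusted p = 6.8e-07). The summed level of the 8 was 13.6 to 16.8 FPKM in the controls and 26.7 to 27.8 FPKM in the TAZ libraries, but without CD14 it was lower in the TAZ libraries, at 2.79 to 3.30 against 5.01 to 5.82 FPKM. Of 2 liver markers with a row, APOA1 fell from 1.74 ± 0.217 to 0.427 ± 0.229 FPKM and FGB had 1 fragment in all. The 5 endothelial markers were below the filter, with a summed level of 0.336 to 0.533 FPKM in the controls and 0.137 to 0.316 FPKM in the TAZ libraries. The part of CD14-expressing or other cells in the complement results was not tested.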

How the data were processed

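RNA of 6 libraries was examined, grouped by their titles. Per the submitters' processing notes, fastp, HISAT2 and HTSeq were used. Tool versions, genome build, strandedness and how multi-mapping reads were counted are not stated there. The authors deposited FPKM values, in 1 table for each group, per the file headers. Of 16285 rows, 23 held a date in place of a symbol or shared their symbol with another row, and were left out. Library totals, gene lengths and fragment numbers were recovered from the steps of the FPKM values. A fragment number counted as a multiple of 0.5 within 2e-05 plus 2e-07 of its size, at the shortest whole length, which was found for 99.99% of the rows above 0. If a gene's true length is a multiple of that length, its fragment numbers are larger by that factor. A common factor on a library's total and its fragment numbers would leave the FPKM values unchanged. Fragment numbers and floors therefore hold for the recovered totals only. Floors are 3 fragments per library and cover counting error only.

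Genes with at least 1 FPKM in at least 3 libraries were kept (10750). Values were taken as log2(FPKM + 1), and limma 3.58.1 in R 4.3.3 (eBayes with a mean-variance trend) compared the groups, two-sided, at 0.05 after Benjamini-Hochberg adjustment across the kept genes. The code was tested on simulated data. Ratios were compared by an exact permutation of the log2 ratios over 20 splits. The genes named were all members, the called genes of the wider complement list, and the 3 nearest profiles of the 2 members that changed most. Other genes with values in the text (C1QBP, ITGAX, those under the filter, gene neighbours and markers) were chosen after their values were seen. The members, lists and ratios were chosen with earlier results of these data known.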

Additional observations from a re-analysis of the deposited data

How the results depend on the processing

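The 5 called complement genes, C1R, C1S, C3, CFB and SERPING1, kept their direction and their call under every alternative in which they were tested, and CD59 was called under none. These alternatives were a pseudocount of 0.1 or 0.5, no filter, a filter at a mean of 5 FPKM (which left SERPING1 out, so that 4 were called), median-ratio scaling, quantile normalization, no mean-variance trend, limma's voom on recovered fragments, the replicate number as a block, and leaving out each library. Log2 fold changes ranged from 2.05 to 2.23 for C1R, 1.63 to 1.76 for C1S, 2.92 to 3.43 for C3, 3.14 to 5.84 for CFB, 0.71 to 1.07 for SERPING1 and -0.07 to 0.09 for CD59, whose sign changed without control replicate 2 and without TAZ replicate 1 or 2. The count of the wider complement list was less stable. In place of 4, it was 8 with no filter (23.8% of all genes were called there) and 2 with the filter at a mean of 5 FPKM. That filter left C2, PTX3 and ITGAX untested, and MASP1 and COLEC12 kept their calls (limma adjusted p = 0.0375 and 0.0295). Over all genes tested there, 3049 of 7580 were called. The list's count was 2 to 3 with each library left out, beside 3205 to 4396 of the 10750 tested genes. With the replicate number as a block, 2 of that list and all 5 complement genes were called, beside 3512 of the 10750 tested genes. Standard errors in that fit were nearly the same for the 5 genes (0.123 to 0.132), so it hardly used each gene's own spread. Same-numbered libraries did not deviate together (correlations of -0.44, -0.11 and -0.40), and no library correlated best with its own number. With 3 libraries per group such correlations constrain each other, so they cannot decide whether the numbers pair the libraries. Depth limits CFD and CFI, and the fold changes of CFB, C2 and PTX3 rest on few control fragments. So do those of C5AR2 and ITGB2, which were called only with no filter.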
